A study of Mus musculus with 4 samples.

Results

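The TNF superfamily pairs trimeric ligands, most of them anchored in the membrane of the cell that makes them, with receptors on the same or another cell. Of 18193 genes with a probe set of their own, 33 were members here. They were the platform gene symbols that begin with Tnfsf or Tnfrsf, without Tnfrsf1a and Tnfrsf1b, together with Fas, Fasl, Cd40, Cd40lg, Cd27, Cd70, Lta and Ltb. By role they were 12 ligands, 20 receptors and Tnfsf13os, an antisense transcript that the symbol rule takes in. For each gene the brightest probe set, by its mean over the pools, was used, and 15 members had more than 1 probe set.

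Expression was measured on Affymetrix MOE430 2.0 arrays in CD11b+ splenocytes, the spleen cells that carry integrin alpha M. Of the 4 pools, 2 came from mice exposed repeatedly to social threat, labelled HighThreat, and 2 from control mice, labelled LowThreat, with RNA of 5 mice in each pool. All groups were CD11b+ cells, and the strain, age and sex of the mice, the number of threat sessions and the purity of the isolation are not given in the sources used here. Levels are log2 expression after RMA, a method that corrects background and brings arrays to a common scale. Differences are social threat minus control, with the standard error (SE) of limma, a linear model whose variances are moderated across probe sets. A gene was called at an adjusted p under 0.05, and rose and fell are used of called genes only. The 95% intervals are those of limma for each gene alone, without adjustment for the number of probe sets. The interval of a gene not called can therefore lie wholly on the negative or positive side. Since each array reads a pool, p-values rest on the spread between pools and not between mice. The moderated variance of a gene drew more on other probe sets (a median of 7.14 prior degrees of freedom) than on its own pools (2 residual degrees of freedom).

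As background, receptors of the family fall into classes. Those with a death domain, such as Fas, recruit FADD and caspase-8 and can end in apoptosis. Most others, such as CD40, bind TRAF adaptors and activate NF-kappaB, and several of them act as costimulatory or survival receptors of lymphocytes and antigen-presenting cells. Decoy receptors bind ligand without signalling. In the spleen, myeloid cells are a known source of BAFF, the ligand on which mature B cells depend, and dendritic cells and macrophages carry CD40 and costimulatory ligands.

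The arrays had medians between 4.41 and 4.43, and the deposited values give no measure of background. Itgam, the gene of the antigen used for isolation, stood at 10.47 and 11.01 in the control pools and at 11.64 and 11.59 in the social threat pools. It rose by 0.88 (SE 0.13, limma adjusted p = 0.0015), and the control pools were farther apart than the social threat pools. Precursor neutrophil markers rose for 6 of 6 measured genes and mature neutrophil markers for 8 of 9. Markers of B cells fell for 8 of 9, of T cells for 8 of 8, of NK cells for 7 of 9 and of conventional dendritic cells for 9 of 9. Erythroid markers rose for 5 of 8 genes and platelet markers for 5 of 5, while stromal and endothelial markers fell for 2 of 6. Over all genes, 11.7% fell and 9.40% rose. In such bulk samples, fewer cells of a type, a smaller share of them among all cells and less RNA per cell cannot be told apart.

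The comparison asked how the genes of the family differed after repeated social threat. Of the 33 members, 8 fell (24.2%) and 2 rose (6.06%), where 11.7% of all 18193 genes fell and 9.40% rose. Over all probe sets 15.8% were called. Of the members, 24 had a mean level at or above the median of all probe sets, where 11037 of 18193 genes did, and every called member was among them. With dim probe sets left out, 8 of 24 members fell (33.3%) and 2 rose (8.33%), beside 4168 and 3284 of 22519 probe sets. These background shares are both larger than over all genes. Their unit differs, since a gene can have several of these probe sets and some have no symbol, while each member has 1. By size alone, 7 members were at least 1.5-fold apart without overlap between the pools, all lower in social threat, where 7.54% of all genes were that far apart in either direction. The members that fell were the ligands Tnfsf9, Fasl and Lta and the receptors Cd40, Tnfrsf13c, Tnfrsf4, Tnfrsf12a and Tnfrsf18. The members that rose were the ligand Tnfsf13b and the receptor Tnfrsf21. The median log2 difference was -0.14 over the members and -0.02 over all genes. Among TRAF-binding receptors 5 of 13 fell and 0 rose. Of 4 receptors with a death domain 0 fell and 1 rose, and of 3 decoy receptors 0 were called. A mean level at or above that median was found for 11 of the 13, 2 of the 4 and 2 of the 3. The classes were not tested against each other.

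**Figure D1:**
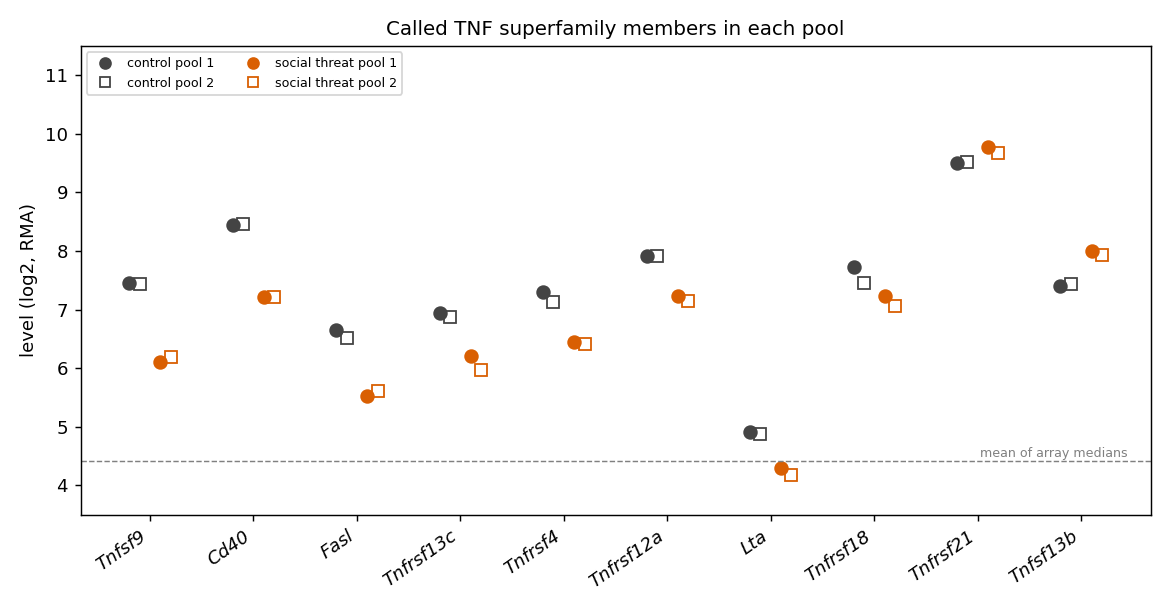
Log2 level (vertical axis, RMA) of the 10 called members in each of the 4 pools, control in grey and social threat in orange, with pool 1 as a filled circle and pool 2 as an open square; the dashed line is the mean of the array medians. The pools of the groups do not overlap for any gene drawn, and Lta is the gene whose social threat pools lie below the line.

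**Figure D2:**
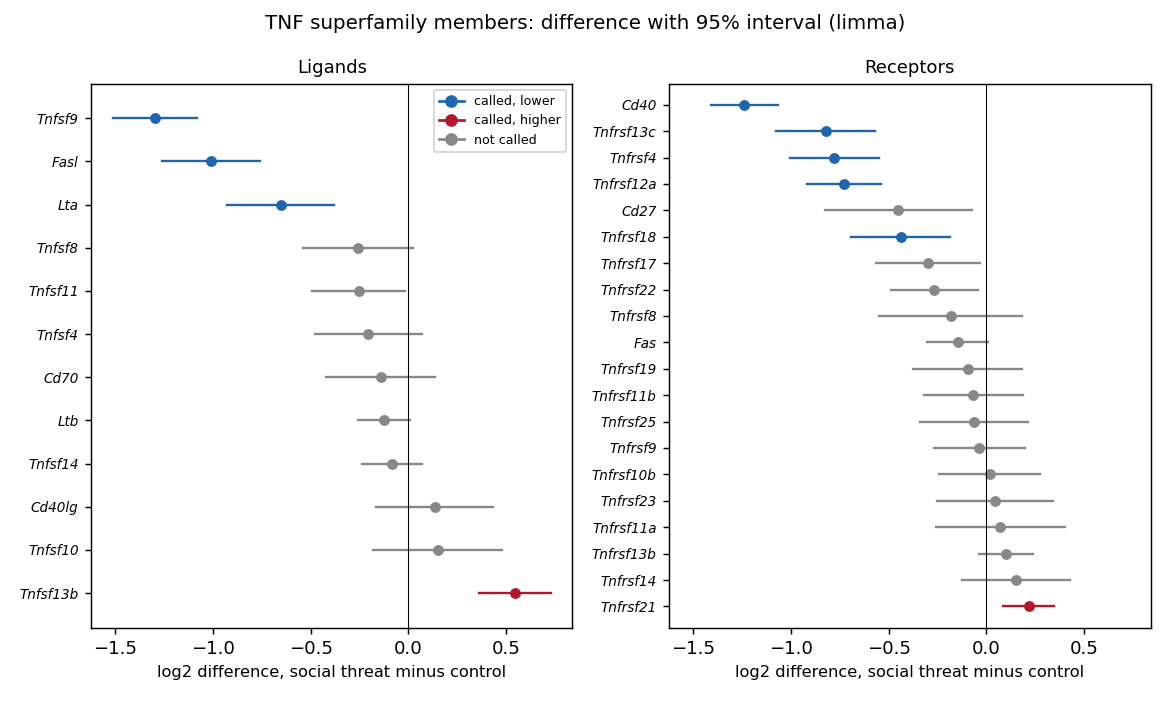
Log2 difference, social threat minus control (horizontal axis), of the 12 ligands and 20 receptors, with 95% intervals from limma; blue marks called and lower, red called and higher, grey not called. Tnfsf9 (-1.30) and Cd40 (-1.24) lie farthest to the left and Tnfsf13b (0.55) farthest to the right.

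Among the ligands the difference of Tnfsf9 was largest in size. Tnfsf9, also named CD137L, is a costimulatory ligand of activated antigen-presenting cells. Its level was 7.46 and 7.44 in the control pools and 6.11 and 6.20 in the social threat pools. Every social threat pool thus lay far below every control pool, and the gap between groups exceeded the spread within either. The log2 difference was -1.30 (SE 0.09, limma adjusted p = 1.75e-05), a 2.46-fold fall, and 22 of 18193 genes had a larger fall.

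Fasl encodes Fas ligand, the death ligand of cytotoxic T cells and NK cells. It stood at 6.65 and 6.51 in control and at 5.53 and 5.61 in social threat pools, with no overlap. It fell by 1.01 (SE 0.11, limma adjusted p = 0.000232), or 2.02-fold, and 122 genes had a larger fall. Its dimmer probe set fell too, by 0.69 (SE 0.12), from 5.38 and 5.34 to 4.65 and 4.69. T cell markers had a median difference of -0.98 in the same pools, with a summed linear signal of 1318 to 1383 in control and 669 to 685 in social threat pools. NK cell markers had a median of -0.71, with sums of 4708 to 4786 and of 2486 to 2549. Such sums lean on the brightest marker, which is Ccl5 for NK cells. No marker of either list was at or below the array medians in all pools, and the part of these cells in the fall of Fasl was not tested.

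Lta encodes lymphotoxin alpha, which lymphocytes secrete or display together with lymphotoxin beta. It fell from 4.90 and 4.87 to 4.29 and 4.18, a log2 difference of -0.65 (SE 0.12, limma adjusted p = 0.00508). The social threat pools lay below the array medians. Without social threat pool 2 the difference was -0.60 with an adjusted p of 0.0795. Ltb, which encodes lymphotoxin beta, the membrane anchor of that complex, stood at 11.06 and 11.26 in control and at 11.04 and 11.04 in social threat pools and was not called (log2 difference -0.12, SE 0.06, adjusted p = 0.234). Without control pool 1 the difference of Ltb was -0.22 with an adjusted p of 0.00326, and without control pool 2 it was -0.02 (adjusted p = 0.751). The control pools of Ltb were farther apart than pool 1 of the controls was from the social threat pools.

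Lta and Ltb lie on either side of Tnf on chromosome 17, and Lta was called while Ltb was not, which is not a test of a difference between them. The 250 bases before their starts are shown from RefSeq (GRCm38.p6), 5′ to 3′ on the strand of the gene, because these neighbours differ in the motifs searched. They are chr17:35205352-35205601 on the minus strand and chr17:35194257-35194506 on the plus strand. Capitals mark matches on either strand to the kappaB consensus, to AP-1 (TGANTCA) or to the PU box (GAGGAA).
Lta: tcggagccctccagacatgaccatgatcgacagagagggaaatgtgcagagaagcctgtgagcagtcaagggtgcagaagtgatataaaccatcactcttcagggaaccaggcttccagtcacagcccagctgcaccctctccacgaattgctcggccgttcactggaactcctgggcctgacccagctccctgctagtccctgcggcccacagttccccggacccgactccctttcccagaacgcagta
Ltb: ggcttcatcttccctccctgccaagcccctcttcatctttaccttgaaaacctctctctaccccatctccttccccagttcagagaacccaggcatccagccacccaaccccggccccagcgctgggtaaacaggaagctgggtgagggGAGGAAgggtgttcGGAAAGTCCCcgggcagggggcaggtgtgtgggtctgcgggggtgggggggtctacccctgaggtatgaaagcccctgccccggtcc
The window of Ltb holds a PU box from 101 to 96 bases before the start and, on the opposite strand, a kappaB match from 87 to 78 bases before it. None of these letter patterns is in the window of Lta. The pair was picked by this outcome, and a link between motifs and calls was not tested.

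Tnfsf13b encodes BAFF, the survival factor of mature B cells that myeloid cells produce. It was the ligand that rose, from 7.40 and 7.43 to 7.999 and 7.927, with no overlap. The log2 difference was 0.55 (SE 0.08, limma adjusted p = 0.00141), or 1.46-fold, and 775 genes had a larger rise. Without social threat pool 1 it was 0.51 with an adjusted p of 0.0525. Its other probe sets, both dim, had differences of 0.44 (SE 0.14) and 0.21 (SE 0.15) and were not called. Markers of monocytes and macrophages, which make BAFF, fell for 6 of 9 genes and rose for 1, with a median of -0.42 and summed linear signals of 24767 to 24770 in control and 20529 to 20885 in social threat pools. Mature neutrophil markers, 8 of 9 of which rose, had sums of 68757 to 69270 and of 93651 to 93936, and no marker of either list was at or below the array medians in all pools. The part of these cells in the rise of Tnfsf13b was not tested.

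No receptor of BAFF rose. Tnfrsf13c encodes BAFF-R, the receptor through which BAFF keeps mature B cells alive. It fell from 6.95 and 6.87 to 6.20 and 5.97, a log2 difference of -0.82 (SE 0.11, limma adjusted p = 0.000891). Tnfrsf13b encodes TACI, a BAFF receptor of marginal zone and memory B cells. It stood at 9.24 and 9.14 in control and at 9.30 and 9.29 in social threat pools and was not called, with a difference of 0.10 and a 95% interval from -0.04 to 0.24. The interval of Tnfrsf13c ran from -1.07 to -0.57, and a difference between the receptors was not tested. Tnfrsf17 encodes BCMA, the BAFF receptor of plasma cells, and lay at or below the array medians in all pools, between 4.08 and 4.42. Its pools were lower in social threat without overlap, and it was not called (difference -0.30, limma adjusted p = 0.135, 95% interval -0.56 to -0.03). B cell markers fell for 8 of 9 genes with a median of -1.11, and their summed linear signal was 4513 to 4603 in control and 2126 to 2224 in social threat pools. No B cell marker was at or below the array medians in all pools. Plasma cell markers, a list that holds Tnfrsf17 itself, fell for 2 of 7 genes and rose for 0, with a median of -0.12. The part of these cells in the values of the BAFF receptors was not tested.

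Cd40 had the largest fall of the receptors. CD40 receives T cell help on B cells, dendritic cells and macrophages. Its level was 8.44 and 8.46 in control pools and 7.21 and 7.21 in social threat pools, so that the pools of a group were nearly equal and the groups far apart. The log2 difference was -1.24 (SE 0.08, limma adjusted p = 6.23e-06), a 2.36-fold fall, and 31 genes had a larger fall. The other 2 of its 3 probe sets fell by 1.15 (SE 0.09) and 1.08 (SE 0.11). Cd40lg, the ligand that activated T cells display, lay at or below the array medians in all pools, between 3.80 and 4.15, and was not called (difference 0.14, 95% interval -0.16 to 0.44). Conventional dendritic cell markers had a median of -1.12, with summed linear signals of 9416 to 9612 in control and 3994 to 4151 in social threat pools. Cd83 was the brightest of them and weighs most in these sums. No marker was at or below the array medians in all pools, but Xcr1 was below them in all except control pool 2. B cell and macrophage markers, given above, were also mostly lower in these pools, and the part of these cells in the fall of Cd40 and of Tnfsf9 was not tested.

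Tnfrsf4 and Tnfrsf18 encode OX40 and GITR, costimulatory receptors of activated and regulatory T cells. Tnfrsf4 fell from 7.30 and 7.12 to 6.45 and 6.42, a log2 difference of -0.78 (SE 0.10, limma adjusted p = 0.000652). Tnfrsf18 fell from 7.73 and 7.45 to 7.24 and 7.07, a difference of -0.44 (SE 0.11, limma adjusted p = 0.0272). For Tnfrsf4 the groups were well separated, while for Tnfrsf18 the gap between the nearest pools of the groups was smaller than that between the control pools. The call of Tnfrsf18 was lost without control pool 1 (-0.30, adjusted p = 0.0836), without social threat pool 1 (-0.52, adjusted p = 0.0973) and without social threat pool 2 (-0.35, adjusted p = 0.282). It was also lost without the variance trend, which leaves the difference as it was (adjusted p = 0.0826). Without control pool 2 it was -0.58 and called (adjusted p = 0.00393). T cell markers, whose values stand beside Fasl, fell in the same pools, and their part in these falls was not tested.

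Tnfrsf4 and Tnfrsf18 are neighbours on chromosome 4, with 0 protein-coding genes between them, and both fell. The 250 bases before their starts are shown from RefSeq (GRCm38.p6) on the plus strand, chr4:156013445-156013694 and chr4:156026072-156026321, with capitals as above, because the members moved the same way.
Tnfrsf4: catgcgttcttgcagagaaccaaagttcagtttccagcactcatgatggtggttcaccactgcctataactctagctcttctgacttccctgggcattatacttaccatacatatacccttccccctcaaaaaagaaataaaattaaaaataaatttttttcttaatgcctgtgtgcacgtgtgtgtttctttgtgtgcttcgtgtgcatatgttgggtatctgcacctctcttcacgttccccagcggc
Tnfrsf18: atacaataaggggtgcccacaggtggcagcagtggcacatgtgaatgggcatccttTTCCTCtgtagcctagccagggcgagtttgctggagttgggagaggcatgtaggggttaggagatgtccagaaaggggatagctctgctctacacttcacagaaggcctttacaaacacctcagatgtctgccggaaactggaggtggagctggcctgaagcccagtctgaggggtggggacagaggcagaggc
The window of Tnfrsf18 holds a PU box on the opposite strand, from 194 to 189 bases before the start, and that of Tnfrsf4 holds none of the searched patterns. Of the 33 members, 24 had an entry in the RefSeq table. A kappaB match was found in 4 of these 24 genes (Ltb, Tnfrsf25, Tnfrsf8 and Tnfrsf9), against 8.23% of all genes, and in 0 of the 6 that fell. AP-1 was found in 5 of 24, against 7.82% of all genes, and the PU box in 8 of 24, against 25.9%, with 0 and 1 of the 6 that fell. These matches describe letters in a window of 250 bases and say nothing of binding.

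Tnfrsf12a encodes Fn14, the receptor of TWEAK, which many tissues induce after injury. It fell from 7.92 and 7.91 to 7.24 and 7.14, a log2 difference of -0.73 (SE 0.08, limma adjusted p = 0.000312), and its second probe set fell by 0.65 (SE 0.08). The groups did not overlap on either probe set. Tnfrsf21 encodes DR6, a receptor with a death domain. It rose from 9.51 and 9.51 to 9.78 and 9.67, a difference of 0.22 (SE 0.06, limma adjusted p = 0.0339), and its second probe set rose by 0.30 (SE 0.08). This was the smallest difference among the called members. Its call was lost without social threat pool 1 (0.16, adjusted p = 0.393), without social threat pool 2 (0.27, adjusted p = 0.113) and without the variance trend (adjusted p = 0.181).

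Ligands were set beside the receptors they bind. Of 15 pairs, both partners were called in 1, BAFF and BAFF-R, and there in opposite directions. The ligand alone was called in 4 pairs, the receptor alone in 2 and neither in 8. Fas, the receptor of Fas ligand, stood at 8.43 and 8.41 in control and at 8.29 and 8.26 in social threat pools and was not called (difference -0.15, 95% interval -0.30 to 0.01), beside -1.01 for Fasl. Tnfrsf9, which encodes CD137 and binds Tnfsf9, stood at 6.22 and 6.22 and at 6.22 and 6.15 (difference -0.04, 95% interval -0.27 to 0.20), beside -1.30 for its ligand. The pools of Fas were lower in social threat without overlap, where 32.1% of all genes were, while those of Tnfrsf9 overlapped. Another Tnfrsf9 probe set, near the array medians, had a difference of -0.43 (SE 0.15, limma adjusted p = 0.0863). The dimmest had a difference of -0.08 (SE 0.11). No probe set of this gene was called, and whether they differ was not tested. Tnfsf4, the ligand of OX40, lay between 4.38 and 4.67, near the array medians, and was not called (difference -0.20, 95% interval -0.48 to 0.07). Whether partners differed from each other was not tested.

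**Figure D3:**
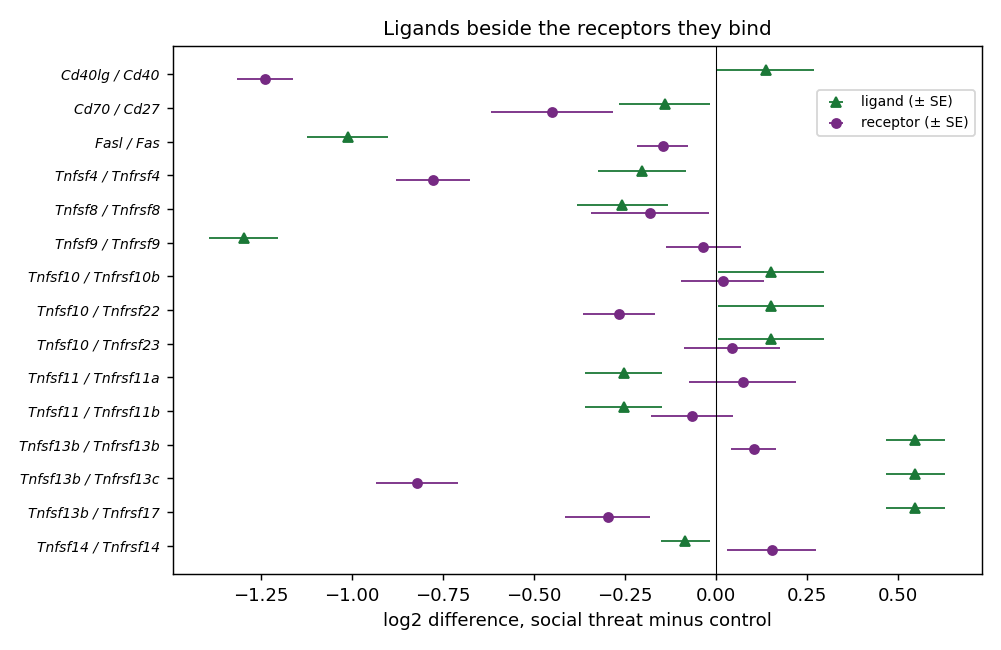
Log2 difference, social threat minus control (horizontal axis), of each ligand (green triangle) beside a receptor it binds (purple circle), with bars of ± SE from limma, for 15 pairs; a ligand with several receptors appears once per receptor. Tnfsf13b lies at 0.55 and Tnfrsf13c at -0.82, and Tnfsf9 at -1.30 beside Tnfrsf9 at -0.04.

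Of the other members, Tnfsf14, the ligand LIGHT, was bright and not called, at 8.59 and 8.63 in control and at 8.50 and 8.55 in social threat pools (difference -0.09, 95% interval -0.24 to 0.07). Its pools were lower in social threat without overlap. The remaining 15 members were not called, with log2 differences from -0.45 to 0.15. The lowest was Cd27, a costimulatory receptor of T cells and memory B cells, at 4.50 and 4.99 in control and at 4.37 and 4.22 in social threat pools. Its difference of -0.45 (SE 0.17, limma adjusted p = 0.115) moved with the control pools, which were far apart. It was -0.69 and called without control pool 1 (adjusted p = 0.0119), and -0.21 without control pool 2 (adjusted p = 0.394). Tnfrsf22, a decoy receptor of the death ligand TRAIL, was also called without control pool 1 (difference -0.34, adjusted p = 0.0430), and was at -0.19 without control pool 2 (adjusted p = 0.223). With all pools its difference was -0.27 (SE 0.10). Its dimmer probe sets had differences of -0.08 (SE 0.12) and 0.125 (SE 0.12) and were not called. Whether the probe sets of this gene differ was not tested. Tnfrsf22 is a close relative of Tnfrsf23, so their probe sets may share signal. Cd40lg, Cd70, Tnfsf8, Tnfsf11, Tnfrsf10b, Tnfrsf11b, Tnfrsf17 and Tnfrsf25, 8 members in all, were at or below the array medians in every pool and were not called. Of these, Tnfsf8 (difference -0.26, 95% interval -0.54 to 0.02), Tnfsf11 (-0.25, -0.49 to -0.02) and Tnfrsf17 were lower in social threat without overlap between the pools. The pools did not overlap and were lower in social threat for 18 members (54.5%), where 32.1% of all genes were, and higher for 4 (12.1%), where 26.1% were.

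Genes of TNF receptor signalling were read from a list of 50, of which 45 had a probe set of their own. Most act downstream of the receptors, but the list also held 5 other receptors of the family and 4 proteases. Of the 45, 18 fell (40.0%) and 3 rose (6.67%), beside 11.7% and 9.40% of all genes, and the median difference was -0.10. Most of the list was bright, with 42 genes at or above the median mean level of all probe sets. With dim probe sets left out, 19 of 42 signalling genes fell and 3 rose, beside 4168 and 3284 of 22519 probe sets, of which a gene can have several. TRAF adaptors fell for 3 of 5 measured genes. Traf1, an NF-kappaB-induced adaptor of TNFR2, CD40 and CD137 signalling, stood at 9.39 and 9.26 in control and at 8.02 and 8.02 in social threat pools (difference -1.30, SE 0.07). Traf5, an adaptor of CD27, CD40 and OX40, fell from 6.86 and 6.80 to 6.13 and 6.02, by 0.76 (SE 0.10). These adaptors lay lower in every social threat pool than in any control pool. In the same pools the markers of B cells (8 of 9 lower, median -1.11), T cells (8 of 8, -0.98) and conventional dendritic cells (9 of 9, -1.12) fell, with the summed signals given above, and their part in the falls of the signalling genes, Traf1, Traf5 and Relb included, was not tested.

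The list was then read by function, with no test between the functions. Over all genes, 11.7% fell and 9.40% rose. NF-kappaB subunits and inhibitors fell for 4 of 6 genes and rose for 0, with a median of -0.57. Relb, the subunit that CD40, BAFF-R and the lymphotoxin receptor activate, fell from 9.20 and 9.19 to 8.47 and 8.50, by 0.71 (SE 0.06). Nfkbie, an inhibitor that holds NF-kappaB in the cytoplasm, fell by 0.62 (SE 0.05). Ubiquitin ligases and editors of the receptor complex fell for 8 of 9 genes. Otulin, a deubiquitinase of linear chains, fell by 0.67 (SE 0.07). Traf3ip2, an adaptor known from IL-17 and CD40 signalling, fell by 0.69 (SE 0.10). Genes of the death branch, such as Fadd, Casp8 and Cflar, fell for 0 of 7 and rose for 1, the necroptosis gene Mlkl, by 0.41 (SE 0.10).

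Of receptors of the family whose symbols lie outside the rule, 1 of 5 was called, Relt, a receptor of blood cells, which rose by 0.29 (SE 0.08). Among these receptors Eda2r, Edar and Ngfr were at or below the array medians in all pools. Of 4 proteases that release or process ligands and receptors, Adam10 rose by 0.30 (SE 0.05) and the others were not called. Of all genes, 11.7% fell and 9.40% rose, and 1 call in a list this short is near that share. Of 21 calls on signalling genes, 11 were left when social threat pool 1 was omitted and 11 when pool 2 was, and in each case 0 were higher. It was 13 without the variance trend, 12 lower and 1 higher.

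**Figure D4:**
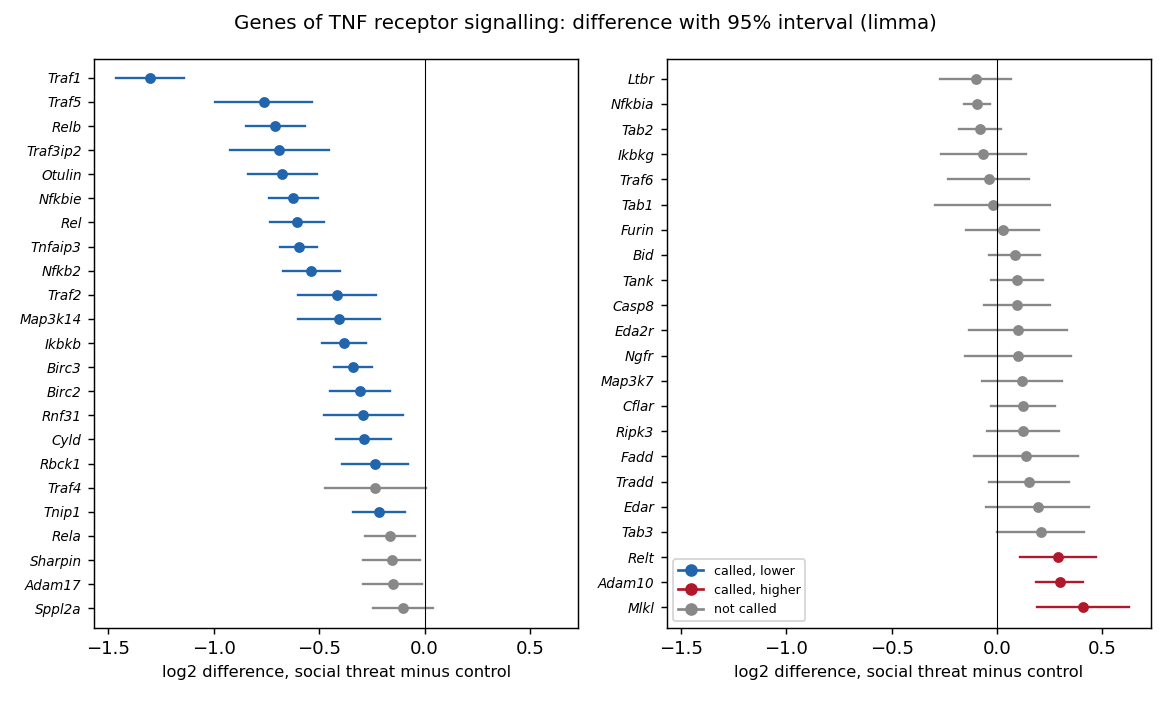
Log2 difference, social threat minus control (horizontal axis), of the 45 measured signalling genes, sorted from the lowest at upper left to the highest at lower right, with 95% intervals from limma; colours as for the members. Traf1 (-1.30) is lowest, and Relt, Adam10 and Mlkl (0.29 to 0.41) are the called genes above 0.

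**Figure D5:**
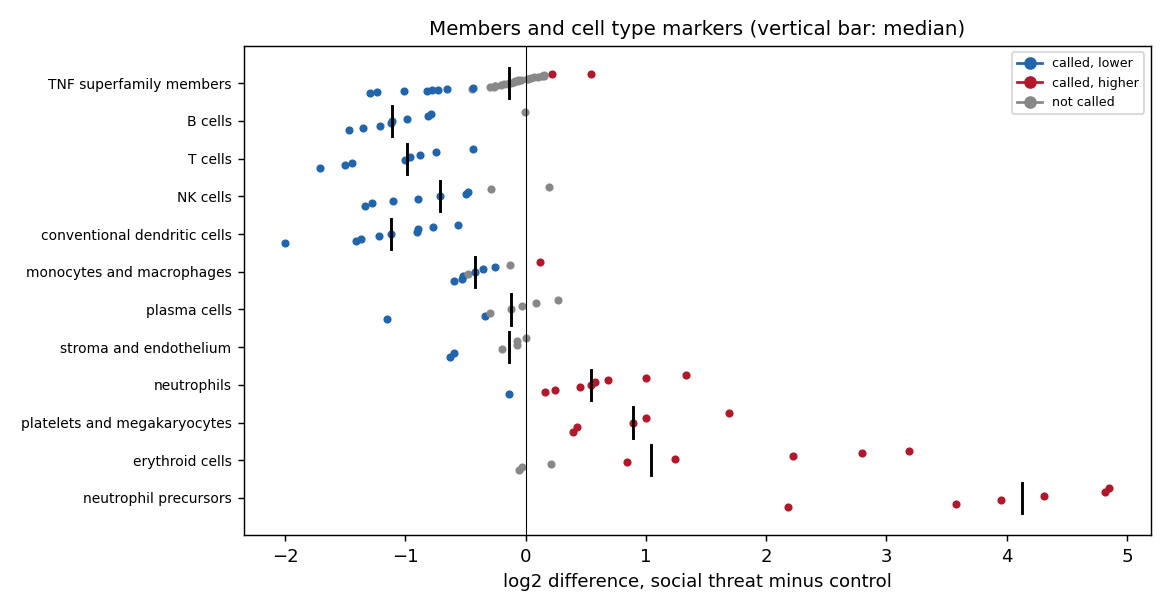
Log2 difference, social threat minus control (horizontal axis), of each member and of each marker gene of 11 cell type lists, coloured by call, with a vertical bar at the median of each list. The members have a median of -0.14, the lists of B, T, NK and conventional dendritic cells lie between -1.12 and -0.71, plasma cells at -0.12, and neutrophil precursors at 4.13.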

How the data were processed

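RNA of CD11b+ splenocytes was hybridised to 4 arrays, 1 per pool. The authors deposited 1 log2 value for each probe set and array. The submitters' processing notes name RMA, whose version and further settings are not given in the sources used here. With RMA the differences of dim probe sets shrink, and no probe set is marked as detected or absent. Columns ran from 2.26 to 14.25 with medians of 4.41 to 4.43, were not centred per gene, and had their log2 scale inferred from that range. The values were used as deposited, without scanner files, and the number of arrays limits the precision.

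Of 45037 probe sets, 34945 had exactly 1 symbol in the platform annotation, 932 had several and named no gene, and 9160 were not listed. The 2 groups were fitted with limma 3.58.1 under R 4.3.3 (lmFit, eBayes with a mean-variance trend, 2 residual and a median of 7.14 prior degrees of freedom). Two-sided p-values were corrected with the Benjamini-Hochberg method across all 45037 probe sets. Lists were described by counts and medians, without a test. An exact permutation test of 2 pools against 2 cannot go below p = 0.333. Summed linear signals add 2 to the power of each marker's level, so the brightest markers weigh most in them. Examples are Ccl5 among NK cell markers (control mean 11.24) and Cd83 among conventional dendritic cell markers (control mean 12.04). The code was tested on simulated data.

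The members, the signalling list and the marker lists were chosen with earlier results of these data known. Every called member is given with its level in each pool, members not called where a partner was called or the mean level was at least 7, and up to 6 called signalling genes per direction. Cd27 and Tnfrsf22 were chosen after their values were seen, as was the grouping of signalling genes by function. The sequences shown were picked by the calls or the motif matches of their genes. Alternatives were the trend, a filter on dim probe sets, median centring, quantile normalization, the pool number as a block, each pool left out, other choices of probe set and a 1.5-fold rule. With a pool left out, the lone pool of a group is assumed to vary like the others. The labels name no batch, and a batch that ran along with the groups would be confounded with them.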

Additional observations from a re-analysis of the deposited data

How the results depend on the processing

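The count of called members was 10 and lay between 7 and 12 when each pool was left out in turn, between 8 and 11 under the other limma alternatives, and at 7 by the 1.5-fold rule without overlap. All 10 kept their direction under every alternative. The count over all probe sets was 7099. It lay between 3171 and 8721 with a pool left out (3341 without social threat pool 1, 3171 without social threat pool 2), at 4689 without the variance trend and at 2543 by the 1.5-fold rule. The count of signalling genes was 21, lay between 11 and 24 with a pool left out, and was 13 without the trend and 8 by the 1.5-fold rule, which needs a larger difference. Except for that rule the cause was not tested. Pools of different groups share numbers but the labels do not say that these pair them, and same-numbered pools deviated from their group means with a correlation of 0.05. With pool number as a block, 8168 probe sets, 10 members and 23 signalling genes were called, and the 10 members were the same genes. Tnfrsf17 was called only as the mean of the probe sets of each gene (-0.30, adjusted p = 0.0334), where fewer rows were tested. The deposited values give no measure of background, so whether the members at or below the array medians were detected was not tested.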

Other observations

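The ligands TWEAK and APRIL, encoded by Tnfsf12 and Tnfsf13, were read only by probe sets that several symbols share, and so were outside the members. The probe set shared by Tnfsf12 and the read-through gene Tnfsfm13 fell from 6.77 and 6.83 in control pools to 6.06 and 6.32 in social threat pools (log2 difference -0.61, SE 0.12, limma adjusted p = 0.00603). The probe set shared by these and Tnfsf13 stood at 9.47 and 9.38 and at 9.28 and 9.25 and was not called (difference -0.16, SE 0.06, limma adjusted p = 0.113). Neither can be assigned to a single ligand. TWEAK is the ligand of Fn14, whose gene Tnfrsf12a fell by 0.73 in the same pools.

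The antisense transcript Tnfsf13os stood at 6.148 and 6.001 in control and at 6.142 and 6.027 in social threat pools and was not called (difference 0.01, 95% interval -0.24 to 0.26). A probe set shared by the decoy receptors Tnfrsf22 and Tnfrsf23 had a difference of -0.05 (SE 0.09) and was not called either.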
